A study of Saccharomyces cerevisiae with 2 samples.

Results

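The molecules described here began almost at the start codon. They are the transcript isoforms that covered exactly 1 whole open reading frame (ORF) on their own strand and that began 0 to 10 nt upstream of the first base of its ATG. An isoform is a distinct pair of start and end position on a strand, and its deposited count is given as molecules. Of the 510263 isoforms in the deposited table, 20427 met this rule, with 229503 of the 6074514 molecules. They are called short-leader molecules below, and the leader is the stretch of RNA from the start of the molecule to the base before the ATG. A leader of 0 nt means that the molecule began with the A of the start codon.

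The data came from Saccharomyces cerevisiae in the BY4741 laboratory background, in which kanMX4 replaces SET2. Set2 methylates histone H3 behind elongating RNA polymerase II. Cells grew in YPAD, a rich glucose medium, to mid-log phase at an optical density of 1, and transcript isoform sequencing (TIF-Seq) read where each capped RNA began and where the same RNA was polyadenylated. There was 1 group of 2 biological replicate cultures, both with the deletion, and no wild type was analysed here. The deposited table gave both cultures as 1 pooled count, so no value has a spread between replicates and no comparison was tested. Intervals in parentheses are 95% Wilson intervals on shares, or order-statistic intervals on medians, and cover counting error only.

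In eukaryotes a small ribosomal subunit usually binds near the 5′ cap and scans for the first ATG. A start codon very close to the cap is known to be passed by part of the scanning subunits, which then can start at a later ATG. If that ATG is in the same frame, the product lacks its N-terminus, and several yeast enzymes reach 2 compartments in this way, because the longer protein carries a mitochondrial signal. In mammals, a start element called TISU allows starting from very short leaders. In yeast, RNA polymerase II tends to begin at a purine preceded by a pyrimidine, a pair called the initiator here, and an A at position -3 is the base most favoured before yeast start codons.

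The start windows of the genes on which the results turn show how little RNA precedes the ATG. Each runs from 20 bases before the ATG to 19 bases after its first base, 5′ to 3′ on the coding strand of the R64 genome (RefSeq). Capitals mark the stretch from the most used short-leader start, or in RPS8A from its most used start of any leader, to the end of the start codon. RPS8B, RIB5, MRPL9 and BOL1 had many short-leader molecules, CAB5 began at the ATG itself, and SOL3 and COI1 had leaders of 2 and 1 nt. FMP52 and EFG1 each used a pair of short leaders. RPS8A and TPM1 are the paralogues of RPS8B and TPM2, and were picked after their values were seen.
RPS8B, chrV:363080-363119, plus strand: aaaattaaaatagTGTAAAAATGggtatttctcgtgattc
RPS8A, chrII:89106-89145, minus strand: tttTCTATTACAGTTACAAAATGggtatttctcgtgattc
RIB5, chrII:728083-728122, minus strand: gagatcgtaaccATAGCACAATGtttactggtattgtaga
MRPL9, chrVII:936864-936903, minus strand: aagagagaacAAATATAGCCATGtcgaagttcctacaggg
BOL1, chrI:57498-57537, plus strand: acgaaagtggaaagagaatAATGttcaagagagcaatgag
CAB5, chrIV:850980-851019, minus strand: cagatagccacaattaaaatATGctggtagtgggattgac
COI1, chrIV:1238831-1238870, minus strand: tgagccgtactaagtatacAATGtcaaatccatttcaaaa
SOL3, chrVIII:423704-423743, plus strand: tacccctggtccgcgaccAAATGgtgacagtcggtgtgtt
FMP52, chrV:159560-159599, plus strand: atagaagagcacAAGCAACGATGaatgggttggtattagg
EFG1, chrVII:1038482-1038521, minus strand: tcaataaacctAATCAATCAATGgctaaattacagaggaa
TPM2, chrIX:89696-89735, minus strand: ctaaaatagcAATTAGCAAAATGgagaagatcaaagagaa
TPM1, chrXIV:479146-479185, minus strand: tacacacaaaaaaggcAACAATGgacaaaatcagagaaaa

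A second set shows genes in which other molecules began between the annotated ATG and the next ATG in the same frame. Each runs from 20 bases before the annotated ATG to the codon after the next in-frame ATG, on the coding strand, and capitals mark both ATGs. In MEU1, YSA1 and NTG1 such molecules outnumbered those that covered the whole ORF. HTS1, MOD5 and GLR1 are known to make proteins from both ATGs. RDL1 has its next ATG within a few codons.
MEU1, chrXII:177588-177670, plus strand: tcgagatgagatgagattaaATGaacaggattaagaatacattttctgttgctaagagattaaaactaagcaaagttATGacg
YSA1, chrII:461811-461893, minus strand: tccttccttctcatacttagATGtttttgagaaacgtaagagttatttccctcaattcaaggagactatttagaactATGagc
NTG1, chrI:128070-128122, minus strand: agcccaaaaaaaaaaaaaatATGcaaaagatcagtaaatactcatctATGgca
HTS1, chrXVI:638954-639039, minus strand: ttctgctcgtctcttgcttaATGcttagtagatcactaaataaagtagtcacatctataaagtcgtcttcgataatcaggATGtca
MOD5, chrXV:837654-837712, plus strand: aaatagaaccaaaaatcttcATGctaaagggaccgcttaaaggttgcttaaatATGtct
GLR1, chrXVI:375482-375555, plus strand: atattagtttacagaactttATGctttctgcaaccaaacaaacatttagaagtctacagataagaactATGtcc
RDL1, chrXV:849615-849655, plus strand: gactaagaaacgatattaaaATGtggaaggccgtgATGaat

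Short leaders were a small share of the yeast transcripts that covered a whole ORF, but they were spread over many genes. They made up 4.49% of the 5112501 full-ORF molecules (4.47% to 4.51%) and 8.09% of the 252530 full-ORF isoforms. At least 1 was found in 2112 of the 4361 genes with a full-ORF molecule. The median leader was 7 nt among them and 30 nt among all full-ORF molecules. Of their isoforms, 31.6% were counted once, and these held 2.81% of the short-leader molecules. The 10 genes with the most short-leader molecules held 25.7% of them. The share followed the limit set on the leader: it was 1.59% for at most 5 nt and 8.89% for at most 15 nt.

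Within the 0 to 10 nt range, leaders of 7 nt were the most frequent and leaders of 2 nt the least. Molecules with a leader of 7 nt numbered 38537, of which 17802 were from RPS8B, and those with a leader of 8 nt numbered 33406. Leaders of 2 nt had 2780 molecules, against 14776 at 1 nt and 12102 at 3 nt. Leaders of 0 nt had 14317 molecules, or 6.24% of the short-leader molecules, in 644 genes. Leaders of 4 nt or less together had 68059 molecules, or 29.7%. At a leader of 20 nt there were 216853 molecules, so the short leaders formed the low left flank of the leader distribution.

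**Figure D1:**
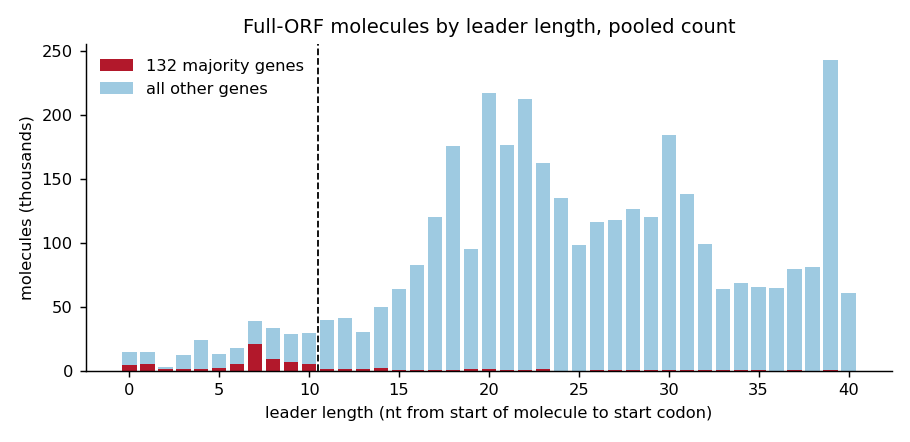
Full-ORF molecules (vertical axis, in units of 1000, pooled count of both cultures) against leader length in nt (horizontal axis), with the 132 genes in which short leaders are the majority in red and all other genes in blue. The dashed line marks the limit of 10 nt; the red bars stand mostly left of it and peak at 7 nt, where RPS8B has 17802 molecules.

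The dip at 2 nt was also present in the number of genes and in the sequence. Among 3008 genes with at least 20 full-ORF molecules, 313 had a molecule with a leader of 2 nt, against 460 at 1 nt and 501 at 3 nt. A molecule with a leader of 2 nt begins at position -2, with position -3 just before it. The initiator pair lay there in 7.08% of these genes (6.22% to 8.05%), against 26.3% at a leader of 1 nt and 34.1% at 3 nt. At a leader of 0 nt the first base is always the A of the ATG, and 37.2% of genes had the pair. At leaders of 5 to 10 nt the pair was present in 21.7% to 26.03% of genes. Of the sites in use, 69.4% had the pair at a leader of 0 nt (65.6% to 72.9%), 18.5% at 2 nt (14.6% to 23.2%) and 63.5% at 3 nt.

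**Figure D2:**
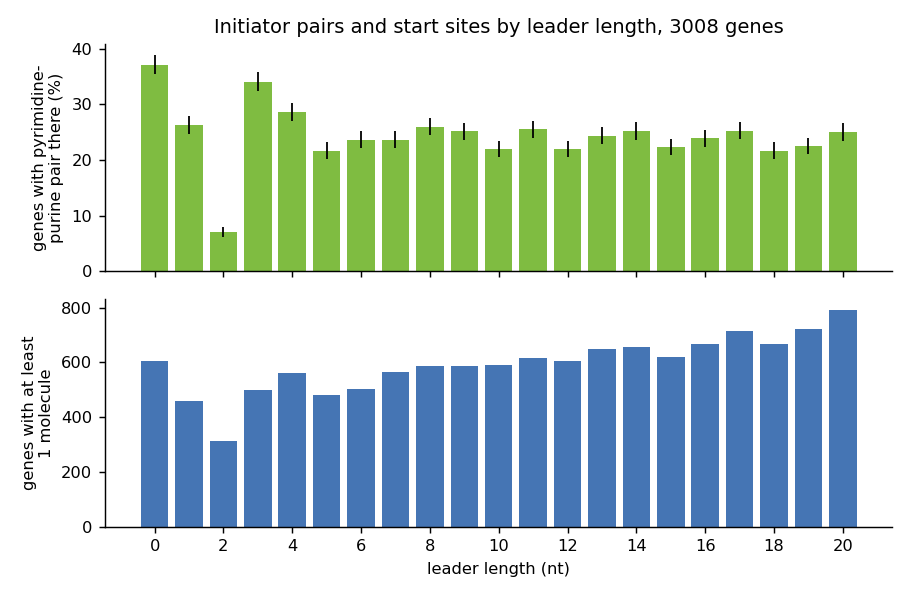
Upper panel, percent of 3008 genes whose genome sequence has the pyrimidine-purine pair at the position of each leader length, with 95% Wilson intervals; lower panel, number of these genes with at least 1 molecule of that leader length. Both panels have their lowest bar at 2 nt, with 7.08% of genes above and 313 genes below.

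Over all 5994 distinct short-leader start sites, 56.8% had the initiator pair (55.5% to 58.1%). At the 47270 start sites with leaders of 11 to 100 nt it was 55.1% (54.7% to 55.6%). Among sites with at least 10 molecules the shares were 72.8% (70.8% to 74.6%) and 67.9% (67.3% to 68.6%). Weighted by molecules, 80.8% of short-leader molecules began at the pair. The start sites were also used to check the positions. At 13741 sites with at least 30 molecules, 73.3% had the pair in R64, and the highest share after moving all positions by up to 5 nt was 23.9%.

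In 132 of the 3008 genes, or 4.39%, short-leader molecules were the majority, with more than 50% of at least 20 full-ORF molecules. They are called majority genes below. They held 62707 short-leader molecules, which was 27.3% of the total. The share was above 75% in 41 of them and above 90% in 13 genes. Of the rest, 1083 genes had 0 short-leader molecules, 1273 had up to 10%, and 520 had more than 10% and up to 50%. Of the majority genes, 99 had at least 50 full-ORF molecules and 21 had at least 1000. The number was 36 with leaders of at most 5 nt, 242 with at most 15 nt, and 45 when each isoform was counted once.

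Just above the limit of 50% was RMR1, a gene of meiotic recombination, with 158 of 308 full-ORF molecules (51.3%). RKM1, a lysine methyltransferase, had 51 of 100 (51%). MSS18, a factor in the splicing of a mitochondrial intron, had 106 of 208 (50.96%). Exactly at the limit, and so outside it, was DSS4, a regulator of the secretory GTPase Sec4, with 164 of 328 (50%). AIM29, a co-chaperone of Zpr1, had 105 of 211 (49.8%). COA1, an assembly factor of respiratory complex IV, had 281 of 565 (49.7%). The counting interval of each of these 6 genes covered 50%, so which side of the limit they fell on was not resolved at this depth. In MSS18 all 106 short-leader molecules began at a leader of 9 nt.

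The majority gene with the most short-leader molecules was RPS8B, which encodes protein eS8 of the small ribosomal subunit. Of its 19957 full-ORF molecules, 17907 had a short leader (89.7%, 89.3% to 90.1%), and 17802 of these began at 1 base, position 363093, with a leader of 7 nt. This base is a T, and RPS8B was the only majority gene whose main short-leader site began with T. The next most used leader was 13 nt, with 687 molecules. The paralogue RPS8A encodes eS8 as well, but its main leader was 17 nt, with 11462 of 19683 full-ORF molecules, and 706 molecules, or 3.59%, were short-leader. The first 20 coding bases printed above are the same in both genes, so these bases alone do not tell them apart. How molecules were assigned to either gene is not given in the sources used here. The exact 30 bases from the main start of RPS8B occur once in the genome.

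Several of the other top 20 genes encode enzymes or mitochondrial proteins. RIB5, riboflavin synthase, had 4888 short-leader molecules of 6725 (72.7%), of which 4066 had a leader of 8 nt. RDL1, a thiosulfate sulfurtransferase of the mitochondrial outer membrane, had 3149 of 3870 (81.4%), with 1895 at 6 nt and 630 at 9 nt. BOL1, a factor of mitochondrial iron-sulfur cluster formation, had 2197 of 2803 (78.4%), with 1855 at 1 nt. These 3 genes thus differed in where the start lay, from 1 to 8 nt before the ATG. CAB5, which catalyses the last step of coenzyme A synthesis, had 2025 of 3661 (55.3%), and 1664 of them began at the A of the ATG. GCV3, the H protein of the glycine cleavage system, had 1879 of 3147 (59.7%), split between 907 at 9 nt and other short leaders. Its most used leader lay just outside the limit, at 14 nt, with 940 molecules.

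FMP52, a protein of the mitochondrial outer membrane, had the highest share of the top 20, with 1391 of 1408 full-ORF molecules (98.8%, 98.1% to 99.2%). Its starts were divided between 8 nt, with 654 molecules, and 10 nt, with 505. COI1, which takes part in the assembly of respiratory complexes, had 970 of 1072 (90.5%), with 564 at 1 nt. SOL3, a 6-phosphogluconolactonase of the pentose phosphate pathway, had 950 of 1558 (61.0%). It was 1 of the 4 majority genes whose main leader was 2 nt, with 530 molecules there, and a nearly equal number, 502, began 31 nt upstream. CFF1, of the cupin family, had 908 of 1600 (56.8%), and YDL086W, annotated as a carboxymethylenebutenolidase, had 872 of 1107 (78.8%).

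Mitochondrial ribosomal proteins were represented by MRPL9 and IMG1 in the top 20. MRPL9 had 3739 short-leader molecules of 5204 (71.8%), from a pair of sites at 10 nt with 2069 molecules and at 6 nt with 1353. IMG1 had 1132 of 1641 (69.0%), with 788 at 6 nt. Both encode proteins of the large mitochondrial subunit. Genes of cytosolic ribosome production were NOP6, which binds rRNA, with 1941 of 2962 (65.5%), and EFG1, needed for 18S rRNA maturation, with 1132 of 1254 (90.3%). EFG1 used leaders of 9 nt and 1 nt about equally, with 442 and 436 molecules.

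The other top 20 genes act in protein folding, the cytoskeleton and chromatin. FPR2, a membrane peptidyl-prolyl isomerase, had 1683 of 2918 (57.7%), of which 1634 were at 8 nt. BIL1, which binds the polarity factor Bud6, had 865 of 1206 (71.7%), with 614 at 1 nt. TPM2, the minor tropomyosin, had 785 of 1233 (63.7%), with 741 at 10 nt. In its paralogue TPM1, 2709 of 8001 full-ORF molecules (33.9%) had a short leader. TPM1 used both a 40 nt leader, with 3079 molecules, and a 4 nt leader, with 1851. TAF9, a subunit of TFIID and SAGA, had 816 of 1347 (60.6%), and VPS75, a histone chaperone, had 784 of 921 (85.1%).

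**Figure D3:**
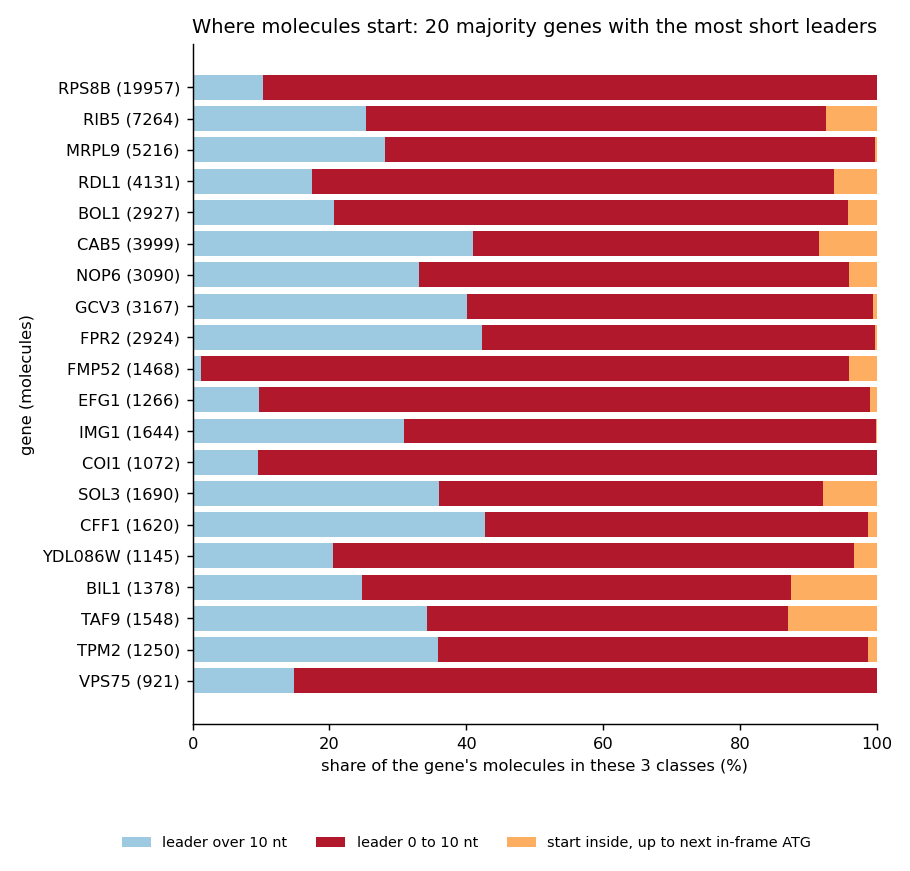
Share of molecules by where they started (horizontal axis, percent) in the 20 majority genes with the most short-leader molecules; the number after each name is the total of the 3 classes. Red, leader of 0 to 10 nt; blue, longer leader; orange, start inside the ORF up to the next in-frame ATG. FMP52 is almost all red, with 1391 of 1408 full-ORF molecules, and TAF9 and BIL1 have the widest orange parts, with 201 and 172 inside-start molecules.

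Short leaders were also numerous in genes where they were a minority. The 5 such genes with the most encode ribosomal proteins of the cytosol. RPS16B had 7706 of 82766 full-ORF molecules (9.31%). RPL23B had 5577 of 120356 (4.63%), and RPS2 had 3930 of 153893 (2.55%). In these 3 genes short leaders were a minor tail of a large transcript pool. RPL38 had 4926 of 33013 (14.9%), and RPL14B had 3798 of 18797 (20.2%). In RPL38, 4710 of these molecules began at a single site with a leader of 8 nt, while 21891 molecules had a leader of 21 nt. In RPL14B the main short leader was 4 nt, with 2544 molecules, beside 4497 at 21 nt.

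Most majority genes used 1 site for most of their short-leader molecules. The main site held a median of 72.1% of them (quartiles 55.7% and 88.5%). Its leader was 8 nt in 22 genes, 9 nt in 19, 7 nt in 17 and 0 nt in another 17, and it was 2 nt in 4 genes and 3 nt in 4. The first base was A in 112 genes, G in 13, C in 6 and T in 1. The initiator pair was present at the main site in 124 of 132 majority genes (93.9%, 88.5% to 96.9%). The 8 without it were RPS8B, YKR018C, TCA17, SNX3, APA2, EFM5, YJL118W and TPP1. First bases and initiator pairs were not counted at the main sites of the other genes. Whether these shares are particular to majority genes is therefore not known.

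Starts exactly at the A of the ATG were common in a few genes, which apart from CAB5 and ERV1 were picked after their values were seen. CAB5 had 1664 such molecules. ERV1, a sulfhydryl oxidase of the mitochondrial intermembrane space, had 599 of 684 full-ORF molecules (87.6%), so most of its whole-ORF molecules had no leader. CIN4, a GTPase that acts in tubulin folding, had 483 of 809 (59.7%), and DAD4, a subunit of the kinetochore DASH complex, had 399 of 1283 (31.1%). RPL3, a protein of the large ribosomal subunit, had 807 such molecules, which was 2.34% of its 34489.

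Functional lists were read against the 4.39% of all 3008 genes that were majority genes (3.71% to 5.18%). Genes of the cytosolic ribosome were rarely majority genes, 1 of 136 (0.735%, 0.130% to 4.05%), and that gene was RPS8B. Genes annotated to the endoplasmic reticulum had 6 of 318 (1.89%, 0.868% to 4.05%) and those of the plasma membrane 3 of 159 (1.89%, 0.644% to 5.40%). Pooled over molecules, 3.94% of those from cytosolic ribosomal protein genes were short-leader. The median short-leader share per gene in this list was 1.59%, above the 1.14% of all 3008 genes. The pooled share was 5.90% in the endoplasmic reticulum genes (5.81% to 5.997%) and 1.08% in the plasma membrane genes, beside 4.48% in all 3008 genes. The endoplasmic reticulum list was thus low by its number of majority genes but not by its pooled molecules. RDL1, CAB5 and FMP52 are on this list and gave 3149, 2025 and 1391 of its short-leader molecules. The median short-leader share per gene was 1.05% in the endoplasmic reticulum list and 1.14% in all 3008 genes. Of the plasma membrane genes, IZH2, of the adiponectin receptor family, had 107 short-leader molecules of 162. FAA4, a fatty acyl-CoA synthetase, had 69 of 121, and QDR2, a transporter, had 61 of 97. The endoplasmic reticulum genes included PER1, with 59 of 66, and RTN2, a reticulon, with 17 of 24.

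Mitochondrial and nuclear lists lay near the share of all genes. The mitochondrion list had 34 of 628 (5.41%, 3.90% to 7.47%), the nucleus list 39 of 764 (5.10%, 3.76% to 6.91%) and the cytosol list 14 of 297 (4.71%, 2.83% to 7.76%). Mitochondrial ribosomal proteins had 3 of 75 (4%), with RSM10, of the small subunit, at 652 of 1049 molecules beside MRPL9 and IMG1. Pooled over the molecules of these 75 genes, 14.7% were short-leader, and MRPL9 alone had 3739 of them. Among the nuclear genes, IES5, a subunit of the INO80 chromatin remodeller, had 469 of 547 (85.7%). Among the cytosolic genes, YKL069W, a methionine-R-sulfoxide reductase, had 417 of 697 and ARC35, of the Arp2/3 complex, had 184 of 323.

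Several lists had no majority gene: 0 of 25 transcription factors, 0 of 31 translation factors, 0 of 30 proteasome subunits, 0 of 16 glycolytic enzymes and 0 of 11 histone genes. The upper limits of these shares were 13.3%, 11.03%, 11.4%, 19.4% and 25.9%, each above the 4.39% of all genes. Lists of this size could thus not show a lower share of majority genes. Pooled over their molecules, 8.85% of those from proteasome genes and 1.02% of those from glycolytic genes were short-leader, beside 4.48% in all 3008 genes. The median short-leader share per gene was 3.21% in the proteasome list, 0.762% in the glycolytic list and 1.14% in all 3008 genes. Kinases by product name had 4 of 81 (4.94%). CAB5 was among them. ERG8, the phosphomevalonate kinase of sterol synthesis, had 187 of 361, and RBK1, a ribokinase, had 173 of 306. YGK3, a kinase related to GSK-3, had 102 of 104. Uncharacterized proteins had 8 of 143 (5.59%), led by YLR112W with 431 of 581. Genes with an intron had 5 of 213 (2.35%), which were COI1, VPS75, ERV1, CIN2 and EFM5.

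The bases before the start codon were compared between the 132 majority genes and the other 2876. An A at position -3 was found in 72 majority genes (54.5%, 46.0% to 62.8%) and in 66.3% of the others (64.6% to 68.0%), and these intervals did not overlap. In 33 majority genes the main leader was under 3 nt, so position -3 was not part of the main molecule. Among these 33, 39.4% had A at -3 in the genome (24.7% to 56.3%), against 59.6% of the other 99 (49.7% to 68.7%). The interval of these 99 overlapped that of the 2876 genes that were not majority genes. At position -9 the difference between majority genes and the others went the other way. An A was there in 49.2% of majority genes (40.9% to 57.7%) and in 39.0% of the others (37.2% to 40.8%). Majority genes were chosen by where their molecules began, and in 19 of them the main site lay at -9. Over the 10 bases before the ATG, the mean share of T was 18.4% in majority genes and 23.3% in the others, and that of A was 45.4% and 43.5%. The sequence TATAAA, searched on the coding strand within 200 nt upstream of the most used start, was present in 25.8% of majority genes (19.1% to 33.8%) and in 23.6% of all 3008 genes. Its median distance from that start was 76 nt in majority genes and 77 nt in all 3008 genes.

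**Figure D4:**
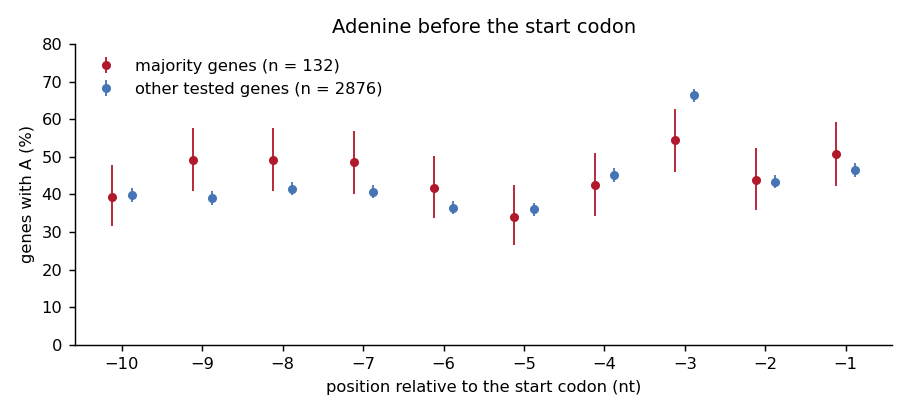
Percent of genes with A at each position from -10 to -1 before the start codon, in 132 majority genes (red) and 2876 others (blue); points are shares and lines 95% Wilson intervals. The largest gap is at -3, with 54.5% in red and 66.3% in blue. At -9 the red share is the higher, with 49.2% against 39.0%.

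The next ATG in the reading frame was then located. It lay at a median of codon 52 in majority genes (40 to 64, quartiles 20 and 99) and of codon 55 in the others (53 to 58), and the first interval covered the second. The near end of the distribution was fuller: 23 majority genes (17.4%, 11.9% to 24.8%) had an in-frame ATG within the next 10 codons, against 9.42% of the others (8.41% to 10.5%). Within 25 codons the shares were 30.3% (23.1% to 38.6%) and 22.0% (20.5% to 23.5%), and within 50 codons 48.5% and 43.8%. In FPR2, VPS75, MTC3 and YER188W the second codon was itself an ATG. RPS8B, COI1 and CWC23 had no further in-frame ATG. At its median, 17.0% of the protein lay before the next methionine. The first later ATG in any frame was in frame in 24.2% of majority genes (17.7% to 32.2%) and in 21.3% of the others.

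Some genes with short leaders also gave molecules that began just inside the ORF. Molecules that started after the first base of the ATG, but no later than the first base of the next in-frame ATG, and that ran past the stop codon are called inside-start molecules. They were counted against inside-start plus full-ORF molecules. The share was 10.97% in majority genes (10427 of 95057) and 2.56% in the others. YSA1 alone gave 3173 of them, and without it the share was 7.92%. The median per gene was 8.45% in majority genes (quartiles 1.27% and 23.8%) and 2.44% in the others (0% and 8.43%). At least 10% was reached in 60 of 129 majority genes with a next ATG (46.5%, 38.1% to 55.1%) and in 22.1% of the others (20.5% to 23.7%). Inside-start molecules outnumbered full-ORF molecules in 9 majority genes (6.82%) and in 45 others (1.56%).

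A far ATG leaves more room for such starts, so genes with an in-frame ATG within the next 25 codons were also taken alone. The median share was 8.06% in 40 majority genes (quartiles 0.869% and 29.7%) and 0.259% in 632 others (0% and 2.03%). Grouped by the median leader of the gene, it was 8.06% in 40 genes with a median of 10 nt or less, 3.11% in 64 genes with a median of 10.5 to 20 nt, 0.584% in 198 genes with 20.5 to 40 nt, and 0% in 370 genes with 40.5 nt or more. Pooled over molecules, the shares of these 4 groups of genes, from the shortest leaders to the longest, were 17.9%, 2.46%, 0.882% and 1.81%. The first group includes YSA1, with 3173 inside-start molecules, and its pooled share was not recalculated without that gene. The medians fell from group to group, while the pooled share was higher in the last group than in the one before it. Among such genes with a median leader of 10 nt or less, 46.0% of inside-start molecules, those of YSA1 included, began within 10 nt of the first base of the annotated ATG. Of those of the other groups, 58.9% did with a median of 10.5 to 20 nt, 40.7% with 20.5 to 40 nt and 20.8% with 40.5 nt or more, so this share was not highest in the genes with the shortest leaders. Inside starts close to the ATG and short leaders are neighbouring positions of the same start region, and genes were grouped by that position.

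In the 5 majority genes with the largest inside-start share, more than 65% of inside-start plus full-ORF molecules were inside-start. This share leaves out molecules that began later in the ORF. Those numbered 279 in YSA1, 16 in MEU1, 282 in NTG1, 40 in FUM1 and 41 in YJL118W. YSA1, an ADP-ribose pyrophosphatase, had 250 full-ORF molecules, of which 177 were short-leader, and 3173 inside-start molecules (92.7%, 91.8% to 93.5%). Of the latter, 1239 began 17 nt and 1006 began 8 nt after the first base of the ATG, and the next in-frame ATG is codon 20. MEU1, the methylthioadenosine phosphorylase of methionine salvage, had 59 full-ORF molecules, 58 of them short-leader, and 893 inside-start molecules (93.8%), with 467 beginning 12 nt inside and 222 at 20 nt. In both genes the bulk of the RNA thus lacked the annotated ATG and held the next in-frame ATG at codon 20.

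NTG1, a base excision repair enzyme found in nucleus and mitochondria, had 60 full-ORF molecules, 43 of which began at the A of the ATG, and 193 inside-start molecules (76.3%), with 98 beginning 23 nt inside. Its next in-frame ATG is codon 10. FUM1, fumarase, had 27 full-ORF molecules, 14 of them short-leader, and 62 inside-start molecules (69.7%), with codon 24 as the next in-frame ATG. YJL118W, of unknown function, had 30 full-ORF and 712 inside-start molecules (96.0%). AIM29, just under the limit for majority genes, was similar in this respect: 100 of its 105 short-leader molecules began at the A of the ATG, and 1990 molecules (90.4% of inside-start plus full-ORF) began inside, 1491 of them 8 nt after that A. Its next in-frame ATG is codon 9.

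Other genes with an early in-frame ATG had smaller inside-start shares than these. RIB5 had 539 inside-start molecules (7.42%), of which 411 began 2 nt after the first base of the ATG, with codon 9 as the next in-frame ATG. RDL1 had 261 (6.32%), of which 229 began 2 nt after it, with codon 6 as the next. BOL1, also with codon 6, had 124 (4.24%). ERV1, whose next in-frame ATG is codon 7, had 138 (16.8%, 14.4% to 19.5%). Of the 40 majority genes with an in-frame ATG within the next 25 codons, 19 had an inside-start share of at least 10%. The same count was not made in the other 632 such genes, in which the median share was 0.259%.

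A fixed list of 11 genes known to make 2 proteins from alternative in-frame starts was examined in full. Only HTS1, MOD5, GLR1, LEU4, CCA1 and GRS1 had the 20 full-ORF molecules needed for a call. Of these 6, 2 were majority genes, HTS1 and MOD5, beside 4.39% of all 3008 genes, and a list this small shows no more than that count. HTS1 encodes both the mitochondrial and the cytosolic histidyl-tRNA synthetase. It had 130 full-ORF molecules, of which 120 were short-leader (92.3%, 86.4% to 95.8%), and 113 of these had a leader of 1 nt. A further 244 molecules were inside-start (65.2%, 60.3% to 69.9%), mostly 14 nt inside, with 142 molecules, and 17 nt inside, with 62. Codon 21 is their first in-frame ATG. Thus most whole-ORF RNA of HTS1 had a single base before the ATG, and more molecules began past that ATG than covered it.

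MOD5, a tRNA modifying enzyme of mitochondria, cytosol and nucleus, had 30 full-ORF molecules, and 28 of them began at the A of the ATG (93.3%, 78.7% to 98.2%). Only 2 were inside-start, before the next ATG at codon 12, and 101 molecules began later in the ORF. GLR1, glutathione reductase of mitochondria and cytosol, had 169 short-leader molecules of 378 (44.7%, 39.8% to 49.8%), 124 of them at the A of the ATG, and 95 inside-start molecules (20.1%), 55 of which began 15 nt inside, before codon 17. Another 660 molecules began later. These genes therefore differed in how many molecules held the second ATG alone.

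The remaining 8 genes of the list had few molecules or longer leaders. TRM1, a tRNA methyltransferase, had 1 full-ORF molecule, with a leader of 0 nt, and 27 inside-start molecules. KAR4, a transcription regulator of mating, had 4 full-ORF molecules, 1 of them short-leader, and 20 inside-start molecules, all 33 nt inside. SUC2, invertase, had 2 full-ORF molecules, neither short-leader, and 41 inside-start molecules. CCA1, which adds CCA to tRNAs, had 48 full-ORF molecules, 0 short-leader, and 34 inside-start molecules. LEU4, of leucine synthesis, had 3 short-leader molecules of 242. GRS1 and ALA1, whose mitochondrial forms are known to start at codons upstream of the annotated ATG, had 0 of 382 and 0 of 2. VAS1 had 0 full-ORF molecules, 0 inside-start molecules and 95 that began later.

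**Figure D5:**
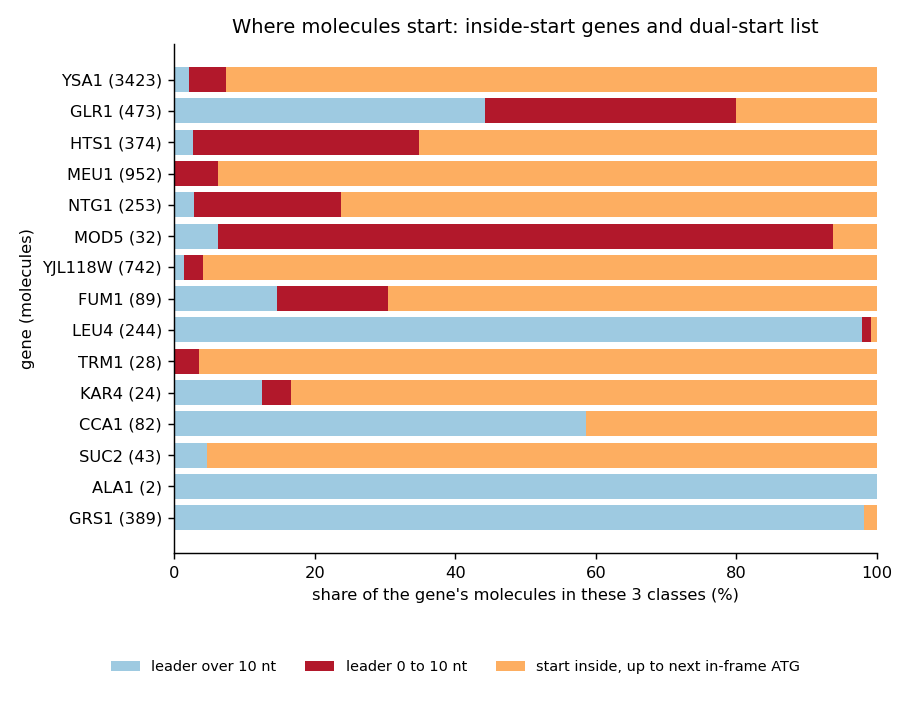
Share of molecules by where they started (horizontal axis, percent) in the 5 majority genes with the largest inside-start share and in the dual-start list; VAS1, with 0 molecules in these classes, is not drawn, and the number after each name is the total of the 3 classes. HTS1 has a red part of 120 short-leader molecules and an orange part of 244 inside-start molecules, MOD5 is mostly red, and GRS1 and LEU4 are mostly blue.

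Features of the RNA and of the locus that the choice of molecules did not use were compared last. The 3′ ends lay close together: in 787 genes with at least 20 short-leader and 20 other full-ORF molecules, the median 3′ UTR was 112 nt in both classes. The median difference was 0 nt, and in 675 genes (85.8%) it was at most 10 nt. The largest difference among the majority genes in this comparison was in NIS1, a protein of the bud neck, with 91 nt for short-leader and 147 nt for other molecules. TIM54, of the mitochondrial import machinery, differed the other way, with 79 and 37 nt. Majority genes had a median ORF length of 945 nt and the others 909 nt. The nearest upstream ORF lay at a median of 298.5 nt in majority genes (quartiles 235 and 568) and 416 nt in the others (274 and 669). It lay within 200 nt in 13.6% of majority genes (8.80% to 20.5%) and in 8.24% of the others (7.29% to 9.30%). It was on the same strand in 47.7% and 46.5%. The number of full-ORF molecules was used directly in choosing the genes. Majority genes had a median of 100 against 175.5 in the others, so their shares are less precise.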

How the data were processed

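TIF-Seq had been run on 2 biological replicate cultures of the set2 deletion strain. The deposited table gives 1 whole-number count per pair of start and end position, pooled over both, per the file headers, and 0 further value columns were present. The submitters' processing notes name build R64, CASAVA and Novoalign 2.07.10 without their roles. Filters and removal of PCR duplicates are not given in the sources used here, so a count can include PCR copies. Counts were used as the authors deposited them, unscaled, with a total of 6074514; a count of 0 allows up to 3 counts, or 4.94e-05% of all molecules.

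Positions were set against 6002 nuclear ORFs of the RefSeq R64 annotation, introns included, with Python 3.11.15, pandas 2.3.3, NumPy 2.4.6, SciPy 1.17.1 and matplotlib 3.10.9. Genes needed at least 20 full-ORF molecules. Component lists (mitochondrion, nucleus and so on) came from gene ontology terms in the annotation, the others from product names or symbols. With 1 pooled column there was no test. The steps were tested on simulated data.

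The genes named were the 20 majority genes and the 5 other genes with the most short-leader molecules, the 5 majority genes with the largest inside-start share, up to 5 per list, the 3 on either side of the 50% limit with at least 50 full-ORF molecules, and the dual-start list. Others were picked after their values were seen. Molecules and lists were chosen with earlier results of these data known. Alternatives changed the leader limit, gene minimum, majority limit, weighting, ORF set, denominator and start positions.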

Additional observations from a re-analysis of the deposited data

Results flagged for a closer look

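A class of molecules outside the comparisons above also began 0 to 10 nt upstream of an ORF but ended inside it, so that it covered no whole ORF. There were 3032 such molecules, or 0.0499% of all molecules (0.0482% to 0.0517%), in 307 ORFs, of which 93 had no short-leader molecule over the whole ORF. No control sample was analysed here, so no background rate for such molecules is known. The limit of 3 counts that a count of 0 allows holds for a single count. It is not a background for this total. MTC1, of unknown function, had 383 of them beside 73 short-leader molecules over the whole ORF. FUN12, translation factor eIF5B, had 257 beside 8, and MRD1, needed for small ribosomal subunit synthesis, had 121 beside 0. VPS75 had 83 and the ubiquitin protease gene UBP5 had 56. These genes were picked after their values were seen, and no cause was tested.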

How the results depend on the processing

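Of 46 alternatives, 22 left their result within the tolerance set for it and 24 moved it; the cause was not tested where the construction does not show it. With leaders of at most 5 nt, the short-leader share was 1.59%, majority genes numbered 36, 58.3% of them had an in-frame ATG within 50 codons and the pooled inside-start share was 15.5%. With at most 15 nt, the values were 8.89%, 242 genes and 7.61% inside-start. Counting each isoform once gave 8.09% and 45 genes. A majority of more than 75% gave 41 genes and 6.52% inside-start. A minimum of 10 full-ORF molecules gave 11.3% inside-start, and a minimum of 50 gave 10.1%. The short-leader share was 4.43% with isoforms of at least 2 molecules, 3.93% and 5.0% with starts moved 1 nt upstream and downstream, 4.41% without ORFs of unknown function, 5.12% without the 10 ORFs with the most full-ORF molecules and 3.92% over all sense molecules that end past the stop codon. The initiator share was 80.8% by molecules, 72.8% at sites with at least 10 molecules and 55.2% at leaders of 1 to 10 nt. Chosen after seeing the data, leaving out RPS8B gave a short-leader share of 4.16% and leaving out YSA1 an inside-start share of 7.92%; using only sites in majority genes gave an initiator share of 57.6%. The share with A at -3 stayed between 47.2% and 61.2%, and the median codon of the next in-frame ATG between 40 and 57. The cultures are pooled, so neither could be left out. Genes with under 50 full-ORF molecules, 33 of the 132, have wide intervals.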
